A study of Rattus norvegicus with 8 samples.

Results

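The comparison described here set differentiating spermatogonia (DSg) against undifferentiated spermatogonia (USg) of one Brown Norway rat germ cell line, with 2 RNA sequencing libraries a side. All 4 libraries of these groups were taken, of 6 RNA libraries in the series, and all 16764 genes of the count table were considered. USg were expanded in SG medium, and their RNA was taken at day 0, before the cells were plated on laminin, with 0 h in SD medium. DSg had been on laminin for 7 days, the last 5 of them (120 h) in SD medium, to which all-trans-retinoic acid and neuregulin-1 are added. Primary spermatogenic cells that did not bind laminin (Spc, 2 libraries) entered only an alternative fit, and Foxa2 chromatin immunoprecipitation samples were not analysed here. Medium, laminin and time in culture differed together between the groups and cannot be told apart. The sample titles of both groups also carry T120 (T120plusG in USg and T120plusRAplusN in DSg), so whether they were matched for time is not settled. The titles do not say what G stands for. The labels speak of replicate cultures of the line and do not say whether these were grown apart in time, so p-values measure the spread between these cultures only. The RNA is from bulk cultures of a single line, in which fewer cells of a type and less RNA per cell cannot be told apart.

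Undifferentiated spermatogonia, which include the stem cells of the testis, are maintained by GDNF, which binds a GFRA co-receptor and the kinase RET, and by FGF receptors, and these receptors act in part through the ERK pathway. Retinoic acid moves them into the differentiating state, which is marked by the receptor KIT and precedes meiosis. Retinoic acid acts through nuclear receptors that bind paired half-sites in DNA, and the CYP26 enzymes that degrade it are among their best known targets. Neuregulin-1 signals through ERBB3 and ERBB4.

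The USg libraries held 2687300 and 5697165 counts and the DSg libraries 2657291 and 3036091. The libraries differed within groups: the ribosomal genes Rn45s and Rn18s took 7.80% and 12.4% of counts in USg 1 and DSg 1 and at most 0.0325% in the other two, and 96.8% of 1045 olfactory receptor genes had a count in DSg 2, against 23.4% to 43.8% elsewhere. Both ribosomal genes were left out, and levels are CPM (counts scaled to a common library total) of all other genes, scaled by TMM factors. Replicates differed on the scale of log2(CPM + 1) with an SD, over the genes tested, of 0.883 in USg and 0.757 in DSg. Of the 4 marker genes, Kit and Cyp26a1 were higher in both DSg libraries, and Gfra1 and Foxa2 in both USg libraries. The germ cell genes Ddx4 (411, 265, 360.0 and 227 CPM) and Dazl (1441, 632, 1927 and 1000.1 CPM) were present in every library. All values are given in the order USg 1, USg 2, DSg 1 and DSg 2, and log2 fold changes are DSg over USg with their SE.

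In DSg, 13 genes rose and 89 fell, of 10977 with enough counts to be tested (edgeR quasi-likelihood F-test, adjusted p under 0.05). These calls are 0.118% and 0.811% of the genes tested, or 0.929% in either direction. Each called gene differed by at least 2-fold, and in each the 2 DSg libraries lay on one side of both USg libraries. That separation alone was common, at 23.1% of tested genes higher and 20.9% lower. The median log2 fold change over all tested genes was 0.00, and 1493 genes had an unadjusted p under 0.05. No gene was called among the 2750 whose higher group averaged from 5 to below 20 CPM or the 380 below 5 CPM, and the smallest called change was 1.94 on the log2 scale. Without USg 1 the counts were 185 higher and 766 lower, without USg 2 they were 56 and 270, and without DSg 1 they were 35 and 77. Without DSg 2 they were 16 and 77. With each library left out in turn, 39 of the 102 genes stayed past the threshold, 6 of them higher and 33 lower. A fit without 1 library leaves 1 library in a group, so the spread of that group is not measured. Passing such a fit is no support for a gene that did not pass with all 4 libraries. In a fit of 6 libraries that shares its estimate of spread with Spc, 72 genes were higher and 224 lower (0.587% and 1.83% of 12262 tested). Among them were all 13 higher and 88 of the 89 lower genes.

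**Figure D1:**
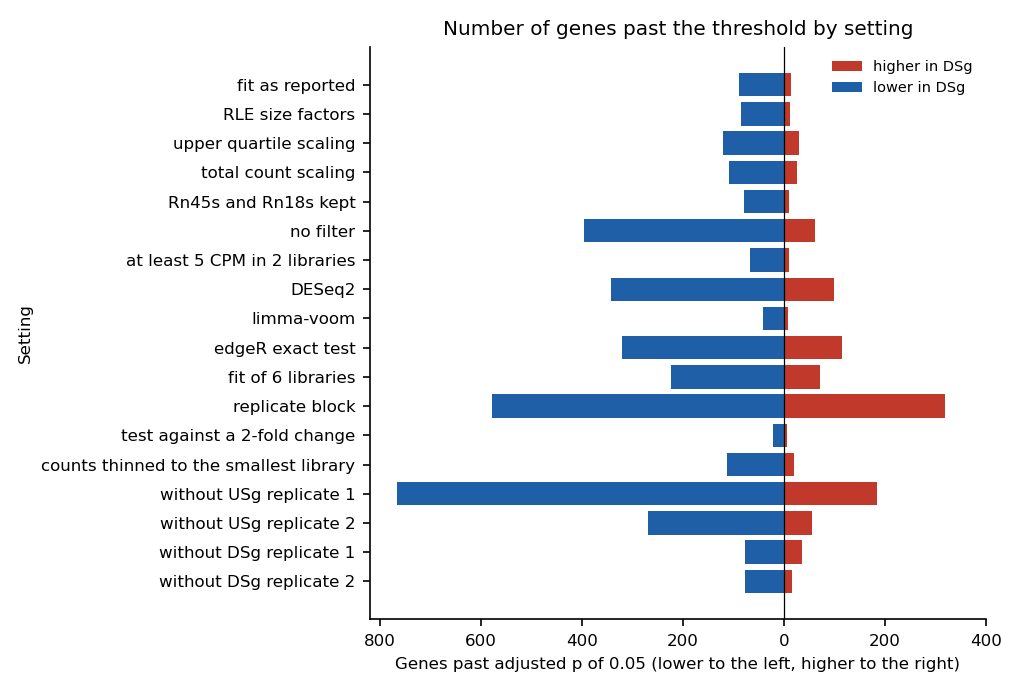
Number of genes past an adjusted p of 0.05 under each setting, with genes lower in DSg drawn to the left (blue) and higher ones to the right (red); the fit without USg 1 and DSg 1 together is not drawn. The reported fit has 13 higher and 89 lower genes, limma-voom has 7 and 42, and the fit without USg replicate 1 has 185 and 766.

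**Figure D2:**
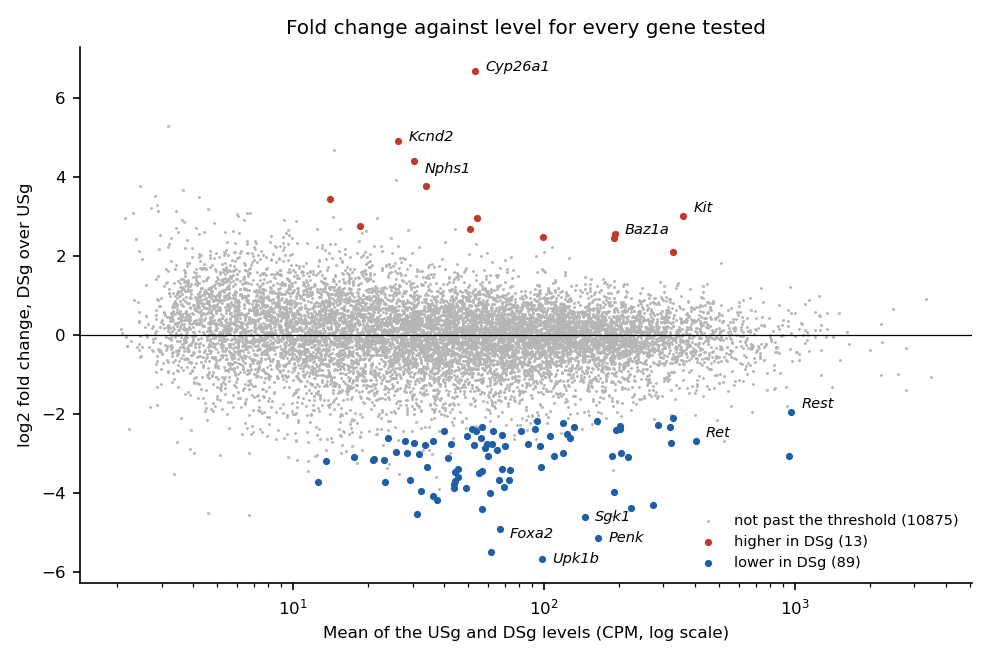
Log2 fold change of DSg over USg (vertical axis) against the mean of both groups' levels in CPM (log scale) for 10977 genes. Red points are the 13 genes past the threshold that were higher in DSg and blue points the 89 that were lower; Cyp26a1 lies highest at 6.67 and Upk1b lowest at -5.66.

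The largest rise was that of Cyp26a1, which encodes an enzyme that degrades retinoic acid. Its levels were 2.04 and 0.374 CPM in USg and 120.1 and 89.8 CPM in DSg (log2 fold change 6.67 ± 0.73, adjusted p = 0.00694). Its counts in USg were low, and the log2 fold change was 7.89 without USg 1 and 5.55 without USg 2. The start of this gene carries a paired retinoic acid half-site, which is why the sequence is shown: the 250 bases before the start, from the RefSeq promoter table (build GRCr8), chr1:244883572-244883821, plus strand, with the half-sites in capitals.
Cyp26a1: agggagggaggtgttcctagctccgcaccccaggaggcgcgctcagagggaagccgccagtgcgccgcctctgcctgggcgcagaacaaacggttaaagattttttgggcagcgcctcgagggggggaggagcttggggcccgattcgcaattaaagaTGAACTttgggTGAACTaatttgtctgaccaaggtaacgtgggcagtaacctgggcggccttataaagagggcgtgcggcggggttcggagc

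On the minus strand the capitals read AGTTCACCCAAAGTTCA, 92 to 76 bases before the start: a direct repeat with a spacer of 5 bases, called DR5. The search took each half-site as AGTTCA or AGGTCA, or with G as the first base as GGTTCA or GGGTCA, in any pairing and on both strands. Such a repeat lay in the 250 bases before the start of 3 of the 8921 tested genes with a promoter in the table, or 0.0336%. The others were Stox1 (1.10 ± 0.46, adjusted p = 0.32) and Spg21 (-0.46 ± 0.44, adjusted p = 0.709), neither of which passed the test. With 50 bases after the start added, 5 genes held one (0.056%), the further 2 being Ice2 (1.16 ± 0.49, adjusted p = 0.324) and Rarb, the retinoic acid receptor beta gene. That of Rarb, at chr15:11336416-11336432 on the plus strand, begins at base 25, with the start counted as base 1, and has its half-sites in capitals. The spellings with G first and the longer window were added after the Rarb window had been seen.
Rarb: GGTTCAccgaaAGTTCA

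Rarb had 6.52 and 0.56 CPM in USg and 58.8 and 37 CPM in DSg, a log2 fold change of 3.93 ± 0.86 that did not pass (adjusted p = 0.0685). Its USg counts were low, at 16 and 3. Its USg libraries were far apart, and over all alternative settings its log2 fold change ranged from 2.76 to 6.21. Rarb did not pass in the fit of 6 libraries (adjusted p = 0.0548) or by limma-voom. Cyp26b1, the related enzyme, had 17.5 and 6.72 CPM in USg and 85.1 and 68.2 CPM in DSg (2.69 ± 0.55, adjusted p = 0.0549). It lay just outside the threshold, passed without USg 1 (7.04e-05) and without DSg 2 (0.0172), and reached 0.0304 in the fit of 6 libraries. Dhrs3, which reduces retinal to retinol, had 4.08, 11.8, 11.4 and 11.1 CPM and overlapped between the groups. Of 18 tested genes of the retinoic acid pathway 1 rose and none fell, with a median log2 fold change of 0.27, against 0.00 over all genes. Stra8 could not be matched to a symbol of the count table, so it was not analysed here.

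Kit, the receptor of stem cell factor, had 90.9 and 66.3 CPM in USg and 648 and 627 CPM in DSg and rose (log2 fold change 3.02 ± 0.41, adjusted p = 0.012). The replicates of each group were close to each other beside this difference. Erbb3, which binds neuregulins, had 12.2 and 14.8 CPM in USg and 67.5 and 109 CPM in DSg and also rose (2.70 ± 0.48, adjusted p = 0.0355), but not without DSg 2 (adjusted p = 0.102). Its partner Erbb2 had 43.6, 102, 65.3 and 81.7 CPM, so that its groups overlapped. Of 9 tested receptors and ligands of these families 2 rose and none fell, with a median of 0.74. Over all tested genes 0.118% rose and 0.811% fell. Among 14 genes associated with differentiating spermatogonia, Kit was the only one called, and the median was -0.30. Sohlh2, a transcription factor of early differentiation, had 89.7 and 122 CPM in USg and 255 and 294 CPM in DSg (1.37 ± 0.40, adjusted p = 0.159), while its partner Sohlh1 overlapped at 45.7, 154, 58.8 and 88.6 CPM. The DNA methyltransferase gene Dnmt3b had 102, 127, 159 and 272 CPM (0.91 ± 0.43, adjusted p = 0.387). Bnc2, a zinc finger gene of germ cells, had 337 and 249.8 CPM in USg and 90.3 and 78.1 CPM in DSg (-1.80 ± 0.41, adjusted p = 0.0765), and passed with 6 libraries (0.028) and without USg 1 (0.0355) or USg 2 (0.00794).

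Kcnd2 and Nphs1 were the only other genes that rose and belonged to a list. Kcnd2, a pore subunit of A-type potassium channels, had 1.63 and 1.68 CPM in USg and 34.2 and 67.9 CPM in DSg (log2 fold change 4.92 ± 0.62, adjusted p = 0.0109). Nphs1, nephrin, an adhesion protein of the kidney filter, had 2.04 and 3.18 CPM in USg and 41.7 and 74.8 CPM in DSg (4.41 ± 0.58, adjusted p = 0.0118). Counts in USg were low for both, at 4 and 9 for Kcnd2 and 5 and 17 for Nphs1. Kirrel2, which encodes a binding partner of nephrin, had 2.45 and 0.187 CPM in USg and 14 and 41.5 CPM in DSg and did not pass (4.68 ± 0.98, adjusted p = 0.0568). The USg levels of Kirrel2 rest on 6 and 1 counts, so its fold change is uncertain. Its DSg libraries differed more from each other than those of Nphs1, and it passed with 6 libraries (0.0416). Over all alternative settings the log2 fold change of Kirrel2 ranged from 3.37 to 7.37. Of 10 tested genes of the nephrin and Kirrel family 1 rose (median -0.61), as did 1 of 16 voltage-gated potassium channel genes (median 0.09). Mpped2, a metallophosphoesterase gene, had 4.08 and 5.04 CPM in USg and 57.4 and 69.1 CPM in DSg (3.77 ± 0.50, adjusted p = 0.0118), with both groups tight. Ctgf, a secreted matrix-associated protein gene, had 1.22 and 3.18 CPM in USg and 21.9 and 30.0 CPM in DSg (3.45 ± 0.65, adjusted p = 0.0417); the change was 4.25 without USg 2, and the call was lost without DSg 2 (0.0557).

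The remaining genes that rose were Polq, Baz1a, Hist1h1d, Lonrf3, Mob1b and Foxn4. Polq, DNA polymerase theta of microhomology-mediated end joining, had 11 and 13.4 CPM in USg and 82.4 and 111 CPM in DSg (log2 fold change 2.97 ± 0.47, adjusted p = 0.0224). Baz1a, a subunit of the ACF chromatin remodeller, had 65.6 and 51.7 CPM in USg and 337 and 307 CPM in DSg (2.46 ± 0.41, adjusted p = 0.0272). Hist1h1d, a linker histone gene, had 138 and 111 CPM in USg and 619.5 and 444 CPM in DSg (2.09 ± 0.40, adjusted p = 0.0439), a value that is uncertain because near-identical histone genes can share reads. These 3 genes were at least 4 times as high in DSg in the comparison of group means. Lonrf3, a RING finger gene, had 50.1, 61.3, 386 and 269 CPM (2.55 ± 0.42, adjusted p = 0.0272), Mob1b, a co-activator of Hippo pathway kinases, 39.1, 21.1, 189.8 and 147 CPM (2.49 ± 0.47, adjusted p = 0.0417), and the forkhead gene Foxn4 3.67, 5.6, 32 and 33 CPM (2.77 ± 0.54, adjusted p = 0.0439), and each of them rose. In the fit without DSg 1, 5 of the genes in this paragraph no longer passed: Baz1a (0.0654), Hist1h1d (0.192), Lonrf3 (0.0944), Mob1b (0.111) and Foxn4 (0.0819). Mob1b was also lost without USg 2 (0.0734) and Foxn4 without DSg 2 (0.0704).

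**Figure D3:**
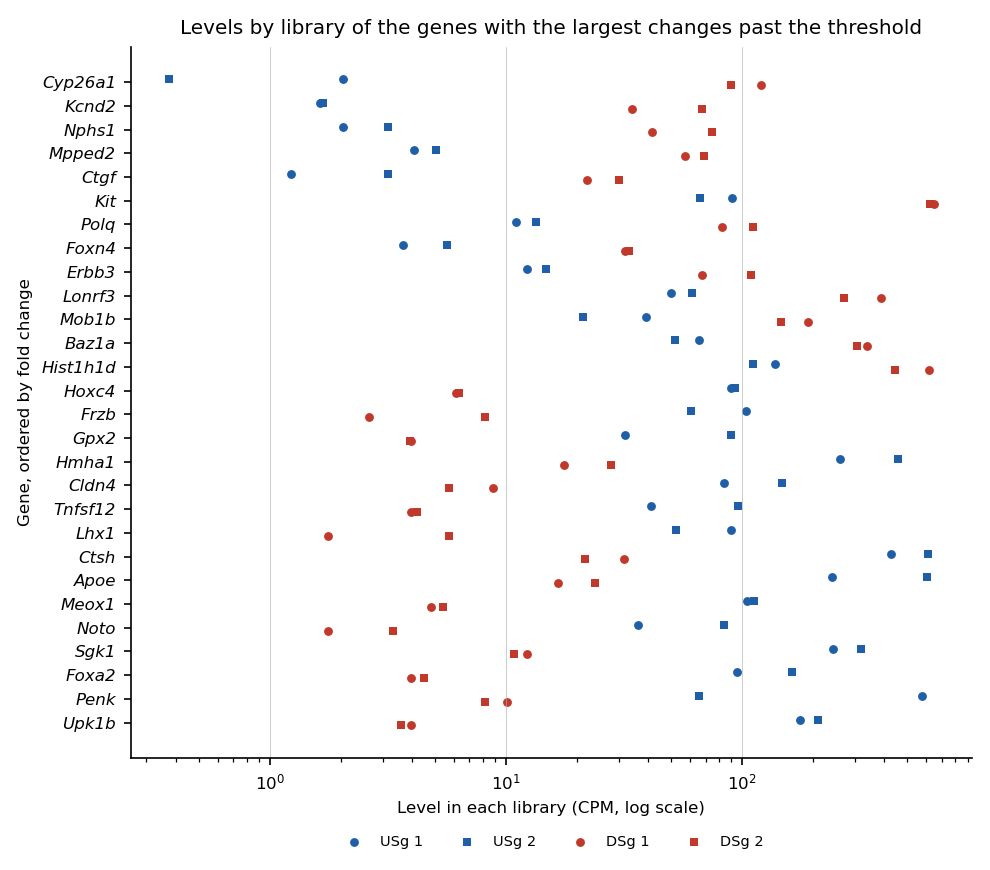
Level in each library (CPM, log scale) of the 28 genes with the largest changes past the threshold, ordered by fold change; blue marks USg, red DSg, circles replicate 1 and squares replicate 2. In every gene both DSg libraries lie on one side of both USg libraries, and the USg libraries of Penk, at 576 and 65.4 CPM, are the farthest apart among the lower genes.

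The receptor genes Ret, Gfra1 and Gfra2, through which GDNF and related ligands act, fell in DSg. Ret, the signalling kinase, had 757 and 635 CPM in USg and 123 and 95.5 CPM in DSg (log2 fold change -2.67 ± 0.40, adjusted p = 0.0179). The co-receptor gene Gfra1 had 193 and 199 CPM in USg and 28.5 and 18.9 CPM in DSg (-3.05 ± 0.45, adjusted p = 0.0157). The related Gfra2, which binds neurturin by preference, had 120.2 and 125 CPM in USg and 10.5 and 8.71 CPM in DSg (-3.68 ± 0.47, adjusted p = 0.0109). All 3 genes were close between replicates of USg, although Ret and Gfra1 did not pass without DSg 2 (adjusted p = 0.0669 and 0.0602). Of the FGF receptors Fgfr3 fell, with 346 and 426 CPM in USg and 47.8 and 42.7 CPM in DSg (-3.10 ± 0.42, adjusted p = 0.012). In the list of receptors and ligands of GDNF and FGF, 4 of 10 tested members fell and none rose, with a median of -1.05. Over all tested genes 0.811% fell and 0.118% rose. Gdnf itself and 5 FGF ligands and binding proteins had too few counts to be tested.

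Of the genes that the ERK pathway induces, among them its own inhibitors, Spry4, Dusp4, Dusp6, Il17rd and Etv5 fell. Spry4, an inhibitor of receptor signalling, had 297 and 371 CPM in USg and 39.5 and 40.9 CPM in DSg (log2 fold change -3.05 ± 0.42, adjusted p = 0.0125). The phosphatase gene Dusp4 had 76.2 and 126 CPM in USg and 7.45 and 10.5 CPM in DSg (-3.48 ± 0.51, adjusted p = 0.0157), and Dusp6, whose product inactivates ERK, had 339 and 381 CPM in USg and 64.9 and 27 CPM in DSg (-2.98 ± 0.50, adjusted p = 0.0294). In each of the 3 both DSg libraries were far below both USg libraries, and Dusp6 varied most between the DSg libraries. Il17rd, a membrane inhibitor of FGF signalling, had 69.7, 111, 19.3 and 14.4 CPM (-2.43 ± 0.48, adjusted p = 0.0477), and Etv5, an ETS factor induced by GDNF and FGF, had 405, 653, 113 and 100.3 CPM (-2.31 ± 0.42, adjusted p = 0.0373). Without DSg 2, Dusp6 (0.0898), Il17rd (0.248) and Etv5 (0.138) did not pass, and without DSg 1 neither did Il17rd (0.076) and Etv5 (0.0557), while Dusp6 moved to -3.89. In all, 5 of 14 tested genes of this list fell and none rose (median -0.84), beside 0.811% lower and 0.118% higher of all tested genes. Of 22 immediate early genes 2 fell (median -0.94). Egr3, a zinc finger factor, had 31, 78.5, 2.63 and 5.71 CPM (-3.67 ± 0.65, adjusted p = 0.0349), with changes from -4.37 without DSg 2 to -2.96 without USg 2 and -4.32 without USg 1. Ier3, a short-lived survival factor gene, had 77.9, 84.4, 10.5 and 4.51 CPM (-3.46 ± 0.54, adjusted p = 0.0224), moved to -4.32 without DSg 1 and did not pass without DSg 2 (0.076).

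In the list of Foxa, Noto and T, Foxa2, Noto and T fell, 3 of 6 tested members, and none rose (median -3.27). Over all tested genes 0.811% fell and 0.118% rose. Foxa2, a forkhead factor that opens chromatin in endoderm and notochord, had 95 and 163 CPM in USg and 3.95 and 4.51 CPM in DSg (log2 fold change -4.92 ± 0.55, adjusted p = 0.00694). The notochord homeobox gene Noto had 36.3 and 84.1 CPM in USg and 1.75 and 3.3 CPM in DSg (-4.52 ± 0.65, adjusted p = 0.014), and T, or brachyury, had 44.4 and 31.2 CPM in USg and 3.07 and 5.11 CPM in DSg (-3.17 ± 0.56, adjusted p = 0.0349). Each of the 3 was above 30 CPM in both USg libraries and below 6 CPM in both DSg libraries. Noto moved to -5.13 without USg 1 and -3.90 without USg 2, and T did not pass without DSg 1 (0.082). Foxa3 had 17.1, 69.9, 2.19 and 6.01 CPM and did not pass (-3.36 ± 0.76, adjusted p = 0.0778), but did with 6 libraries (0.0479) and without USg 1 (5.2e-10) or DSg 2 (0.00967). The LIM homeobox gene Lhx1, a GDNF target in spermatogonia, had 89.7 and 52.7 CPM in USg and 1.75 and 5.71 CPM in DSg (-4.18 ± 0.63, adjusted p = 0.0179), moving to -5.31 without DSg 2. Meox1 (104 and 113 CPM in USg and 4.82 and 5.41 CPM in DSg; -4.39 ± 0.50, adjusted p = 0.00694) and Hoxc4 (90.1 and 92.8 CPM in USg and 6.14 and 6.31 CPM in DSg; -3.87 ± 0.48, adjusted p = 0.0109) are homeobox genes of mesoderm and body axis. Mycn, which drives growth and cell division, had 39.5, 43.2, 6.58 and 6.91 CPM (-2.61 ± 0.49, adjusted p = 0.0417), and was lost without DSg 1 (0.113) or DSg 2 (0.161). Id1, a target of BMP signalling, had 49.7, 217, 13.2 and 12 CPM (-3.41 ± 0.68, adjusted p = 0.0491), with a change of -4.24 without USg 1 and -2.09 without USg 2.

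Of 22 tested genes of undifferentiated spermatogonia, 7 fell and none rose, beside 0.811% lower and 0.118% higher of all tested genes. The 7 genes of this list were Gfra1, Ret, Etv5, Lhx1, Bcl6b, T and Foxa2. The median log2 fold change was -2.31, and in 21 of the 22 both DSg libraries lay below both USg libraries, against 20.9% of all tested genes. Shisa6, chosen here for its direction, was the exception at 1.01 ± 0.81. Zbtb16 (PLZF), a repressor needed for stem cell maintenance, had 168 and 292 CPM in USg and 29.4 and 90.7 CPM in DSg (-1.93 ± 0.56, adjusted p = 0.159). Its DSg libraries differed widely, and it passed without USg 1 (0.000674) or DSg 2 (0.0355). Id4, which marks stem cells, had 51.8 and 49.7 CPM in USg and 21.5 and 14.7 CPM in DSg (-1.49 ± 0.46, adjusted p = 0.176) and passed without USg 1 (0.0452). The genes of this list and of those for GDNF, ERK feedback and Foxa overlap in part, and their members were chosen with results of these data known.

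**Figure D4:**
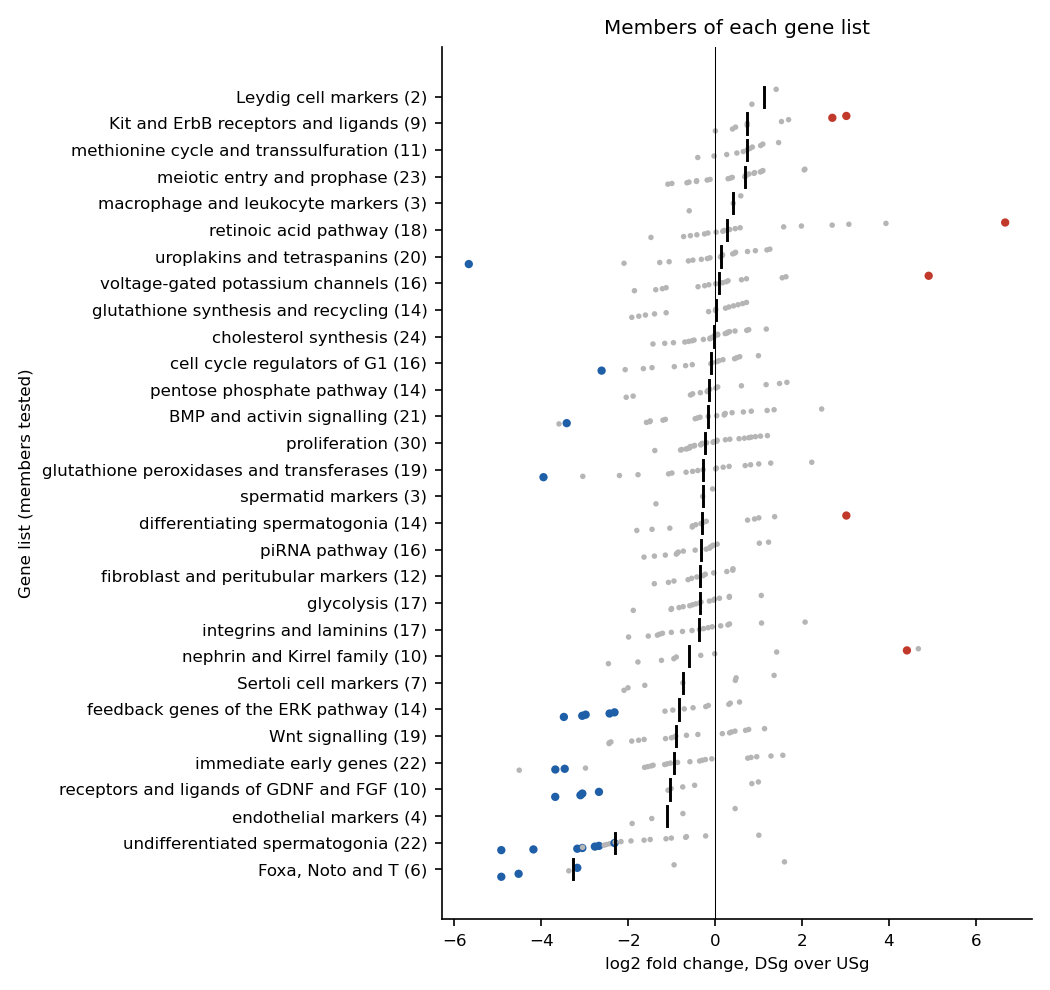
Log2 fold change of each tested member of 30 gene lists (points; number tested in parentheses), with the list's median as a black bar; red and blue points passed the threshold. The list of undifferentiated spermatogonia, with a median of -2.31, and that of Foxa, Noto and T lie farthest to the left.

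Short sequence motifs were counted before the starts of the lower genes, 66 of which had a promoter in the RefSeq table. The forkhead core TGTTTAC lay within 250 bases, on either strand, in 2 of the 66, Etv5 and Gbp2, or 3.03%, beside 1.97% of all tested genes with a promoter. The ETS core CCGGAAGT lay in 1 of the 66, that of Rest, or 1.52%, beside 7.41%. No match says only that these letters are not in this window.

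The genes with the largest falls included surface proteins, enzymes and secreted factors. Upk1b, a tetraspanin of the bladder lining, had the largest fall, with 176 and 209 CPM in USg and 3.95 and 3.6 CPM in DSg (log2 fold change -5.66 ± 0.51, adjusted p = 0.00496). It was the only called gene among 20 tested uroplakins and tetraspanins (median 0.13); Cd9, a tetraspanin used to enrich spermatogonia, had 293 and 282 CPM in USg and 93 and 42.4 CPM in DSg (-2.09 ± 0.47, adjusted p = 0.0758) and passed with 6 libraries (0.0413) and with USg 1, USg 2 or DSg 1 left out (adjusted p = 0.00307, 0.00479 and 0.0295). Sgk1, a kinase induced by steroids and growth factors, had 243 and 318 CPM in USg and 12.3 and 10.8 CPM in DSg (-4.60 ± 0.47, adjusted p = 0.00694). Ctsh, a lysosomal protease, had 427 and 609.9 CPM in USg and 31.6 and 21.6 CPM in DSg (-4.29 ± 0.47, adjusted p = 0.00694). The claudin gene Cldn4 had 83.6 and 147 CPM in USg and 8.77 and 5.71 CPM in DSg (-4.01 ± 0.54, adjusted p = 0.012), and Hmha1, which encodes a GTPase-activating protein, had 260.5 and 456 CPM in USg and 17.5 and 27.9 CPM in DSg (-3.97 ± 0.50, adjusted p = 0.0109). In these 4 genes, as in Upk1b, the lower USg library was at least 9 times the higher DSg library, and none of the 5 lost its call with any 1 library left out.

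In 4 further genes the USg libraries stood apart from each other. Penk, the precursor of enkephalin peptides, had 576 and 65.4 CPM in USg and 10.1 and 8.11 CPM in DSg (log2 fold change -5.14 ± 0.91, adjusted p = 0.0355), and its change was -2.98 without USg 1 and -6.10 without USg 2. Apoe, the lipid carrier, had 241 and 606 CPM in USg and 16.7 and 23.7 CPM in DSg (-4.38 ± 0.56, adjusted p = 0.0109), with -5.03 and -3.68 in the same fits. Tnfsf12, a cytokine gene, had 41.2 and 95.8 CPM in USg and 3.95 and 4.21 CPM in DSg (-4.06 ± 0.59, adjusted p = 0.0157), with -4.67 and -3.43. Gpx2, a glutathione peroxidase of epithelia, had 31.8 and 89.5 CPM in USg and 3.95 and 3.91 CPM in DSg (-3.95 ± 0.63, adjusted p = 0.0238), with -4.63 and -3.12. Each kept its call in both fits. Frzb, a secreted Wnt antagonist, had 104 and 60.7 CPM in USg and 2.63 and 8.11 CPM in DSg (-3.88 ± 0.62, adjusted p = 0.0224), with -4.94 without DSg 2.

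No meiotic gene passed the test, of 23 measured, and the median of that list was 0.68. Rec8, the meiotic cohesin, had 9.38 and 6.54 CPM in USg and 29.8 and 35.4 CPM in DSg (2.05 ± 0.51, adjusted p = 0.103), and Prdm9, which places recombination sites, had 4.89 and 8.78 CPM in USg and 23.2 and 35.4 CPM in DSg (2.07 ± 0.55, adjusted p = 0.127). Both DSg libraries lay above both USg libraries in each, and both genes passed in the fit of 6 libraries (0.0332 and 0.0447). Rec8 also passed without USg 1 (0.0143) and Prdm9 without USg 2 (0.0111). Sycp3, of the synaptonemal complex, had 256, 314, 224 and 153 CPM (-0.60 ± 0.40, adjusted p = 0.556). None of 16 piRNA pathway genes passed (median -0.33), the highest of them being Tdrd5 (1066, 585, 486 and 261 CPM) and Tdrd1 (607, 448, 452 and 315 CPM); Tdrd5 passed without USg 2 (0.0194).

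Pathways of glutathione, pentose phosphates and cysteine, which the series title names, held few genes that passed. Of 14 genes of glutathione synthesis and recycling none was called (median 0.01). Gclc, the catalytic subunit of the first enzyme, had 197, 194, 304 and 262 CPM (0.53 ± 0.38, adjusted p = 0.584), its modifier Gclm had 80.3, 37.9, 103 and 55.3 CPM (0.43 ± 0.51, adjusted p = 0.778), and Gss, the second enzyme, had 81.9, 85.9, 44.7 and 32.4 CPM (-1.12 ± 0.43, adjusted p = 0.286). Gsr, which recycles oxidised glutathione, had 178 and 176 CPM in USg and 65.3 and 69.4 CPM in DSg (-1.39 ± 0.40, adjusted p = 0.153), with replicates close together, and passed in the fit of 6 libraries (0.0466). So did Anpep, an aminopeptidase gene of the same list, with 141 and 130.4 CPM in USg and 36.8 and 52.3 CPM in DSg (-1.60 ± 0.42, adjusted p = 0.125; 0.0413 with 6 libraries), which also passed without USg 1 (0.0426). Among 19 peroxidases and transferases, Gpx2 alone was called (median -0.27). The transferase gene Gstp1 had 12.2, 32.5, 1.32 and 3.91 CPM (-3.04 ± 0.75, adjusted p = 0.103), and passed with 6 libraries (0.0413) and without USg 1 (6.99e-06) or DSg 2 (0.0444). Gstt3 went the other way, with 2.45, 5.98, 22.8 and 18.6 CPM (2.23 ± 0.63, adjusted p = 0.15), and passed with 6 libraries (0.0456) and without USg 2 (0.0107). Values of transferase genes are uncertain, since near-identical members can share reads. The DSg counts of Gstp1 were also low, at 3 and 13. In 14 genes of the pentose phosphate pathway none was called (median -0.14). The transketolase gene Tkt had 95 and 117 CPM in USg and 32.4 and 19.2 CPM in DSg (-2.04 ± 0.47, adjusted p = 0.0801). Tkt passed when USg 1 (0.00133) or USg 2 (0.0131) was left out, and with Spc in the fit (0.0304).

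In the methionine cycle and transsulfuration, which leads to cysteine, none of 11 genes passed, and the median was 0.74. In 8 of the 11 both DSg libraries lay above both USg libraries, beside 23.1% of all tested genes. The list was chosen with earlier results of these data known, so this share is a description and no test of the pathway. Cth, which releases cysteine, had 5.3, 3.74, 11.4 and 13.2 CPM (1.46 ± 0.66, adjusted p = 0.369), Ahcyl1, of the S-adenosylhomocysteine hydrolase family, had 189, 111, 253 and 269 CPM (0.80 ± 0.41, adjusted p = 0.435), and Cbs, the enzyme before Cth, overlapped at 6.52, 11.2, 8.33 and 13.2 CPM. The summed level of the list was 676 and 499 CPM in USg and 939 and 911 CPM in DSg. Mtr, which remethylates homocysteine, had 165, 123, 143 and 139.7 CPM. None of 17 glycolysis genes (median -0.35) or 24 cholesterol synthesis genes (median -0.02) was called. Pfkp, a phosphofructokinase gene, had 47.3 and 65.6 CPM in USg and 15.3 and 15.3 CPM in DSg (-1.88 ± 0.46, adjusted p = 0.0971), and passed with 6 libraries (0.0304) and without USg 1 (0.00149) or USg 2 (0.0336). Srebf2, the regulator of cholesterol synthesis, had 664 and 928 CPM in USg and 357 and 357 CPM in DSg (-1.16 ± 0.38, adjusted p = 0.207) and passed without USg 1 (0.0178), and Hmgcs1, an early enzyme, had 346, 342, 337 and 317 CPM.

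Proliferation genes gave no call among 30 tested (median -0.24). Mki67, an antigen of cycling cells, had 912 and 714 CPM in USg and 1385 and 1402 CPM in DSg (0.78 ± 0.36, adjusted p = 0.381), and Top2a, the topoisomerase of dividing cells, had 454 and 405 CPM in USg and 771 and 761 CPM in DSg (0.83 ± 0.36, adjusted p = 0.352). Of 16 regulators of G1 only Mycn was called (median -0.08), and of 21 genes of BMP and activin signalling only Id1 (median -0.16). None of 17 integrin and laminin genes passed (median -0.36), though 2 were lower in the fit of 6 libraries. Itga8, an integrin subunit, had 79.9 and 45.4 CPM in USg and 12.3 and 18.9 CPM in DSg (-1.99 ± 0.50, adjusted p = 0.106; 0.0416 in that fit), and passed without USg 1 (0.0337) or USg 2 (0.000355). Lama1, a laminin chain, had 99.9 and 86.9 CPM in USg and 26.3 and 37.9 CPM in DSg (-1.54 ± 0.44, adjusted p = 0.153; 0.0492 in the fit of 6). Nor did any of 19 Wnt signalling genes pass, with a median of -0.90, and 2 were lower with 6 libraries. Lef1, a nuclear effector of Wnt signalling, had 44.8 and 83.7 CPM in USg and 12.7 and 11.1 CPM in DSg (-2.44 ± 0.50, adjusted p = 0.0552) and passed with 6 libraries (0.0224) and without USg 1 (1.04e-05) or USg 2 (0.00634). Tcf7l1, a repressor of Wnt target genes, had 64.8 and 35.9 CPM in USg and 6.58 and 11.7 CPM in DSg (-2.43 ± 0.54, adjusted p = 0.0721), and passed under the same settings (0.0343, 0.00715 and 7.58e-06).

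Genes of other testis cells were measured beside these. No member of the 6 lists of such markers was called: 7 Sertoli, 2 Leydig, 12 fibroblast and peritubular, 3 leukocyte, 4 endothelial and 3 spermatid genes were tested, and apart from the Leydig pair their median log2 fold changes were -0.74, -0.34, 0.42, -1.10 and -0.28 in that order. The summed fibroblast level was 1948, 745, 1415 and 915 CPM, and so followed the replicate number rather than the group. Vim alone had 479, 57.9, 303 and 46 CPM and Fn1 643, 185, 639.7 and 458 CPM. Not all members shared this pattern: in 4 of the 12 tested, both DSg libraries lay below both USg libraries, and in none above. Such separation held for 20.9% of all tested genes lower and 23.1% higher. The Sertoli sum was 451, 499.9, 308 and 275 CPM, most of it Clu (309, 399.9, 237 and 187 CPM), while Amh, Gata4, Fshr and Rhox5 were too low to be tested. Both DSg libraries lay below both USg libraries in 4 of the 7 tested members and above them in 2. Inhbb was among the higher ones (12.2, 4.48, 22.8 and 18.9 CPM; 1.36 ± 0.62, adjusted p = 0.369). Sox9 had 86.8, 32.1, 14.5 and 13.2 CPM (-2.09 ± 0.56, adjusted p = 0.125) and passed without USg 2 (3.68e-05). The endothelial sum was 225, 149, 68.8 and 108 CPM. Its highest members by mean level were Pecam1 (115, 77.7, 40.3 and 30.0 CPM; -1.46 ± 0.45, adjusted p = 0.178), which passed without USg 2 (0.0412), and Vwf (35.5, 36.6, 14 and 28.8 CPM). The Sertoli and endothelial sums were lower in both DSg libraries, as were 21 of 22 genes of undifferentiated spermatogonia, and their part in that difference was not tested. Leydig and leukocyte sums stayed below 50 CPM in every library, their highest members being Cyp11a1 (2.04, 2.8, 6.58 and 6.61 CPM) and Hsd11b1 (3.67, 0.187, 0.439 and 5.41 CPM), and Cd74 (11.4, 14.9, 6.58 and 10.8 CPM) and Csf1r (6.11, 2.05, 1.32 and 10.2 CPM). The spermatid sum was 320.4, 334, 343 and 282 CPM, mostly Odf2 (262, 266, 278 and 229.8 CPM) and Spaca1 (53.8, 47.6, 59.6 and 24 CPM), with Prm1, Prm2 and Tnp2 at no more than 1.22 CPM in any library.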

How the data were processed

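RNA of 2 USg and 2 DSg libraries was analysed from the table of raw read counts per gene symbol that the authors deposited, with no normalization, as the values show. Per the submitters' processing notes, the builds rn6 and rn5 and the tools edgeR 3.2.4, HOMER, Picard 1.127, featureCounts, STAR 2.5.3a, Subread 1.4.6 and Bowtie2 2.2.3 were used. Which of them made the counts, with which annotation and strand setting, is not given in the sources used here, so overlapping genes and near-identical paralogs can share reads. Rn45s and Rn18s were left out.

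Genes passing filterByExpr (minimum count 10, minimum total 15) entered the edgeR quasi-likelihood test (version 4.0.16, under R 4.3.3 with limma 3.58.1) on TMM-scaled counts of the 4 libraries, two-sided, with Benjamini-Hochberg adjustment over 10977 genes and a threshold of 0.05. The residual degrees of freedom were 2 and the common coefficient of biological variation 0.373. A fit that leaves out 1 library assumes that the lone library varies like the other group. The code was tested on simulated data.

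The members and the 30 gene lists were chosen with earlier results of these data known. Named were up to 15 genes a direction with the largest change past the threshold (mean of at least 20 CPM, no overlap), up to 4 called members of a list in each direction in the fits of 4 or 6 libraries, or the 2 most abundant where none was called, and 30 genes whatever their result, 1 of which is not reported here. The matches to a motif, Bcl6b, Shisa6 and the germ cell and other cell type markers stand outside this rule. Symbols were matched to RefSeq (GRCr8; 14448 current, 1913 older and 401 unmatched), with a promoter for 8921 of the genes tested. Alternatives are in the closing section, with DESeq2 1.42.0 among them.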

Additional observations from a re-analysis of the deposited data

How the results depend on the processing

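The number of genes past the threshold depended on the setting, from 13 higher and 89 lower as reported. It was 29 and 121 with upper quartile scaling, 25 and 109 with total counts, 62 and 396 without a filter, 98 and 342 by DESeq2, 7 and 42 by limma-voom, 114 and 321 by the exact test of edgeR, 72 and 224 in the fit of 6 libraries, and 5 and 22 against a 2-fold change. With 1 library left out it ranged from 16 to 185 higher and from 77 to 766 lower. In the fit of 6 libraries without USg 1 and DSg 1 together, which was chosen after seeing the data and takes its spread from Spc only, it was 3017 and 3351. The cause of these shifts was not tested. The other settings (RLE factors, Rn45s and Rn18s kept, a filter of 5 CPM in 2 libraries, counts thinned to the smallest library) gave 9 to 19 higher and 68 to 113 lower. Total-count scaling moved the median log2 fold change of all genes to 0.11, and testing without a filter moved it to 0.22.

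With the replicate number as a block the counts were 318 and 579. The numbers are shared by 2 pairs only, their replicate differences correlated at 0.365, and the labels do not say that a number marks a shared culture. USg 1 and DSg 1 were alike in their ribosomal share (7.80% and 12.4%, against 0.00295% and 0.0325% in USg 2 and DSg 2) and in Vim (479 and 303 CPM, against 57.9 and 46.0 CPM), and the part of this in the block result was not tested.

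In all 18 alternatives 22 of the 102 genes stayed past the threshold: Cyp26a1, Kit and Mpped2, which were higher, and 19 lower genes, Foxa2, Upk1b, Gfra2, Fgfr3, Spry4 and Dusp4 among them. Of the 42 named genes past the threshold, 21 did not pass the test against a 2-fold change and 17 did not pass by limma-voom (Penk, Noto, Lhx1, Tnfsf12, Gpx2, Frzb, Egr3, Id1, T, Mycn, Il17rd, Hist1h1d, Erbb3, Foxn4, Ctgf, Nphs1 and Kcnd2). Id1 and Hist1h1d did not pass with RLE factors. These and Il17rd, Foxn4 and Ctgf did not pass with Rn45s and Rn18s kept, and these 5 with Penk, Mycn and Mob1b did not pass with the filter of 5 CPM.

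A change of sign occurred for 13 named genes, none past the threshold in the reported fit or with the sign reversed. Under scaling, upper quartile and total counts gave Hmgcs1 0.013 and 0.030, Odf2 0.025 and 0.043, and Mtr 0.060 and 0.077, and limma-voom gave Mtr 0.0081. Erbb2 was -0.0062 with RLE factors, -0.019 with Rn45s and Rn18s kept, -0.12 without a filter, -0.0086 with a filter of 5 CPM, -0.0057 by DESeq2, -0.045 in the fit of 6 libraries and -0.55 in that fit without USg 1 and DSg 1, where Dhrs3 was -0.32. With 1 library left out the values ranged from -2.69 to 1.49 for Vim, -1.20 to 0.57 for Sohlh1, -1.23 to 0.24 for Spaca1, -0.36 to 0.076 for Odf2, -0.33 to 0.075 for Mtr, -0.60 to 0.64 for Erbb2, -0.18 to 0.61 for Cbs, -0.34 to 1.44 for Fn1, -0.24 to 0.94 for Gclm, -0.19 to 1.34 for Dhrs3, -1.54 to 1.34 for Csf1r and -0.43 to 3.62 for Hsd11b1.

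All calls were of genes averaging at least 20 CPM in the higher group. Thinning every library to the smallest gave 19 higher and 113 lower, no fewer than with all counts, and kept all 13 higher and 88 of the 89 lower genes. Thinning only removes counts, so it cannot show what greater depth would give. With 2 libraries a group, an unlabelled difference between cultures cannot be told apart from the spread within a group.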

Other observations

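Of the 22 genes past the threshold in every alternative, 5 with a gene name were not described above, and they were picked for that reason after their values were seen. Tcl1a, a co-activator of the kinase AKT, had 119 and 141 CPM in USg and 11.8 and 6.61 CPM in DSg (log2 fold change -3.83 ± 0.51, edgeR adjusted p = 0.0118). The homeobox gene Irx2 had 88.5 and 75.5 CPM in USg and 3.95 and 7.81 CPM in DSg (-3.76 ± 0.53, adjusted p = 0.0132). Cited2, a co-regulator of transcription, had 130.4 and 119 CPM in USg and 14.5 and 9.61 CPM in DSg (-3.38 ± 0.48, adjusted p = 0.0132). All 3 fell, and their replicates lay close together beside the difference between the groups. Adgrg1, an adhesion receptor coupled to G proteins, had 135 and 219 CPM in USg and 16.7 and 18.3 CPM in DSg (-3.33 ± 0.47, adjusted p = 0.0132), and Lbp, which binds bacterial lipopolysaccharide, had 91.7 and 116 CPM in USg and 8.33 and 10.8 CPM in DSg (-3.43 ± 0.48, adjusted p = 0.0132). Over the alternatives the log2 fold change ranged from -4.65 to -3.45 for Tcl1a, from -4.36 to -3.50 for Irx2, from -3.87 to -3.10 for Cited2, from -3.81 to -3.06 for Adgrg1 and from -3.71 to -3.30 for Lbp.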
